A study of Mus musculus with 8 samples.

Results

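Thyroid hormone receptors, the genes that carry thyroid hormone into cells and convert it, and well-known targets of the hormone were followed in mouse ventricles with and without the Mediator subunit Med1. The 8 genes are Slc16a10, Dio2, Dio3, Thra, Thrb, Thrsp, Klf9 and Hr, taken by symbol from the deposited gene table, with the row of highest mean standing for a symbol. They are 8 of 23535 rows with a number, and 7 of the 8 are among the 11975 genes that reached a mean of 1 FPKM (fragments per transcript length and library total) and were tested. Dio3 did not reach it. All mice were on a C57BL/6 background and 21 days old. Ventricles were frozen whole, and poly(A) RNA was sequenced in 4 samples per group. The knockout group is labelled as a cardiac knockout of Med1. The other group is labelled WT, and the design text describes it as carrying the floxed Med1 allele. The sources used here do not name the promoter that drives the deletion, nor whether the floxed mice carried a Cre transgene. No label says whether each sample was 1 animal, so p-values may measure only the spread between these samples. Whole ventricle mixes cell types, and fewer cells of a type and less RNA per cell cannot be told apart in such samples.

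The thyroid gland releases mostly thyroxine (T4), which enters cells through membrane transporters. Type 2 deiodinase, the product of Dio2, converts T4 to the active hormone triiodothyronine (T3) inside the cell, and type 3 deiodinase, the product of Dio3, inactivates both. T3 binds the nuclear receptors encoded by Thra and Thrb, which sit on DNA as heterodimers with retinoid X receptors and exchange corepressors for coactivators when the hormone binds. Med1 was first isolated as a protein that associates with the hormone-bound thyroid hormone receptor and links it to the Mediator complex. In the rodent ventricle, T3 is known for raising Myh6 and Atp2a2 around weaning and for lowering Myh7 and Pln.

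Med1 had 7.80, 8.37, 7.89 and 9.15 FPKM in knockout samples 1 to 4 and 15.5, 16.1, 10.6 and 16.8 FPKM in WT samples 1 to 4, a log2 change of -0.74 (limma adjusted p = 0.0011). No knockout sample reached a WT sample (exact two-sided permutation p = 0.0286, the smallest that 70 assignments can give). Summed FPKM ran from 481719 to 502629 in the knockout and from 507484 to 536174 in WT, and relative depth differed by at most 1.1-fold from knockout 1. Among the 11975 tested genes, 61.3% passed the limma test at an adjusted p under 0.05, 44.9% higher and 16.4% lower in the knockout. The median gene moved by 0.25 on the log2 scale in the deposited FPKM. After rescaling the libraries by the median of ratios, that median was 0.01 and the calls were split into 26.9% higher and 26.7% lower. The share of calls that were higher thus went from 73.2% to 50.1%, and the change of each tested member is given on both scales. For other genes the rescaled value is added where it ends the call or moves it by over 1.5 times. The 6 cardiomyocyte markers were all lower in the knockout, with summed FPKM of 16700 to 26400 against 49400 to 55400. Of 7 fibroblast markers 5 were higher (3 after rescaling), with sums of 832 to 1400 against 558 to 660. Of 5 atrial markers 4 were higher, with sums of 5040 to 7930 against 192 to 378 that are mostly Nppa. Myl7, 1 of the other 4, had 61.6, 42.6, 2.5 and 726 FPKM in knockout samples 1 to 4 and at most 0.68 in WT. Myl4, Sln and Bmp10 were also highest in knockout 4. The part of this change in cell markers in the results below was not tested.

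Of the 7 tested genes, 5 changed in the knockout, 4 of them lower (Thra, Thrb, Thrsp and Klf9) and 1 higher (Dio2). The same 4 and 1 were called after rescaling, when 53.6% of all genes were. With 61.3% of all tested genes called as deposited, the count of 5 in 7, taken in either direction, lies near the background. By direction, 16.4% of all tested genes were called lower and 44.9% higher as deposited. After rescaling these shares were 26.7% and 26.9%. Slc16a10 and Hr did not pass the test. Among the 7, the knockout and WT samples did not overlap for Thrb, Klf9 and Dio2, against 57.1% of all tested genes. The knockout lay wholly below WT for 15.3% of tested genes, among them Thrb and Klf9, and wholly above it for 41.7%, among them Dio2.

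**Figure D1:**
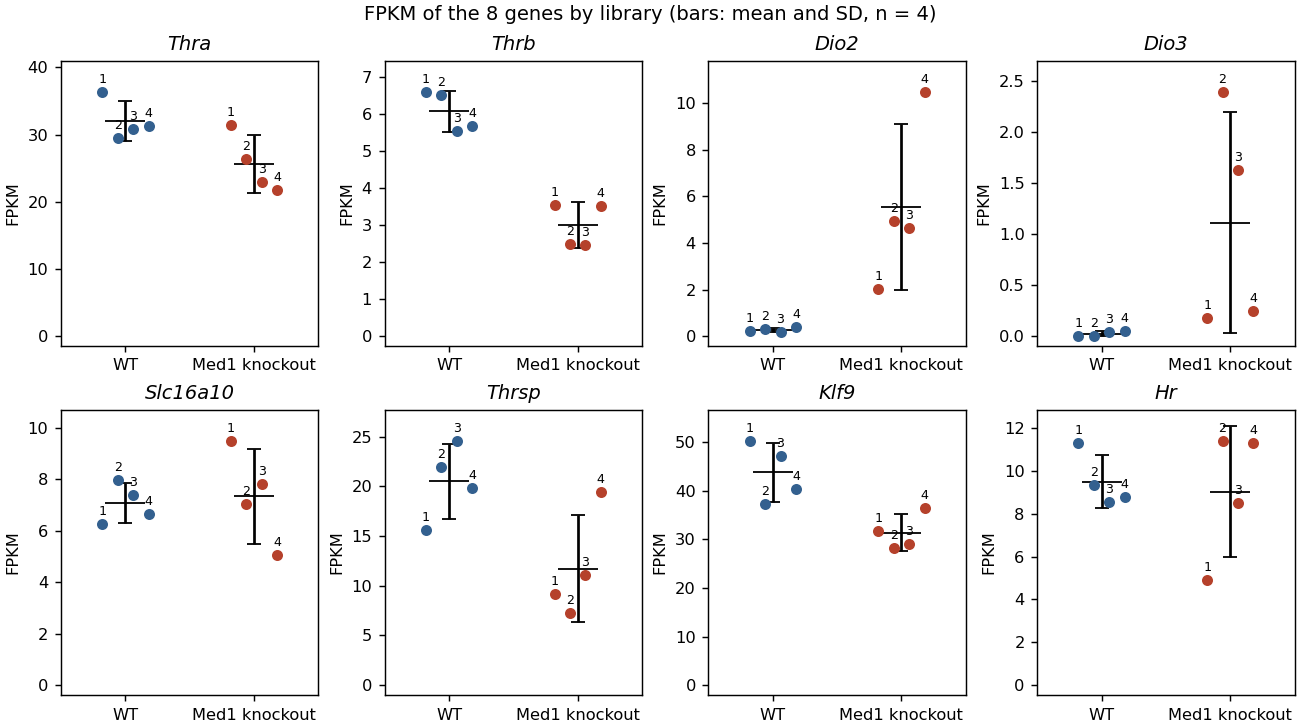
FPKM of each of the 8 genes in each library, with WT in blue and knockout in red. Numbers give the replicate, and bars the mean and SD (n = 4). Thrb and Klf9 are lower and Dio2 and Dio3 higher in every knockout sample than in any WT sample, while the groups overlap for Thra, Slc16a10, Thrsp and Hr.

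The sequences just upstream of the starts of Dio2, Dio3 and Thrb are shown because these genes, with Klf9, are the ones whose groups did not overlap, and because their windows hold short motifs of known use. Of the 8 genes, 6 have an entry in the RefSeq promoter table (GRCm38.p6), with 7 starts between them. In each, the 250 bases before the start were searched for AGGTCA, the half-site of thyroid hormone receptors and of many other nuclear receptors (both strands), for TGACGTCA, the cyclic AMP response element (its own reverse complement), and for TATAAA, the TATA box, on the gene's strand. None of the 3 motifs overlaps another in the windows printed. Capitals mark the matches, and each sequence runs 5′ to 3′ on the gene's strand.
Dio2, chr12:90739039-90739168, minus strand, ending at the base before the start: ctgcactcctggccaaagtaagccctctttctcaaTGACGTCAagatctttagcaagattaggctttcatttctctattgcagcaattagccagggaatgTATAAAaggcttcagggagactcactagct
Dio3, chr12:110279100-110279229, plus strand, ending at the base before the start: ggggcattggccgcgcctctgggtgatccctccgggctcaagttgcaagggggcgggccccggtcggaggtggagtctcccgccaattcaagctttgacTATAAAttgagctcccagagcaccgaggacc
Thrb, chr14:17660750-17660809, plus strand, around its match: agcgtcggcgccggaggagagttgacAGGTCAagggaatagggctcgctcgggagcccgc
TATAAA lies 30 to 25 bases before the start of Dio2 and 31 to 26 before that of Dio3. It occurs in 7.59% of 32851 promoter windows of the same length, and in 1.87% within 21 to 40 bases before the start. TGACGTCA lies 95 to 88 bases before the start of Dio2, and 1.55% of the windows hold it. AGGTCA occurs in 14.0% of the windows, and lies 184 to 179 bases before the more upstream of the Thrb starts. The other Thrb start has TATAAA 167 to 162 bases before it. The windows of Slc16a10, Thrsp and Klf9 hold none of the 3 motifs. The RefSeq start of Dio2 lies 600 bases outside the span deposited for the gene. A match is a description of letters and says nothing of binding in these hearts.

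Slc16a10 encodes MCT10, a transporter of aromatic amino acids and thyroid hormones (chromosome 10, 40033535 to 40142254, minus strand, mm10). It had 9.49, 7.02, 7.8 and 5.05 FPKM in knockout samples 1 to 4 and 6.26, 7.98, 7.39 and 6.65 FPKM in WT samples 1 to 4. The knockout held both the highest and the lowest sample, and the groups overlapped throughout. Mean FPKM was 7.34 ± 1.84 in the knockout against 7.07 ± 0.768 in WT, the order kept below (SD, n = 4 each), with a log2 difference of 0.02 ± 0.157 (SE; 95% interval -0.33 to 0.38; limma adjusted p = 0.902). After rescaling it was -0.22 (adjusted p = 0.275), so that not even its sign was fixed.

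Both chains of another transporter of thyroid hormone rose in the knockout. Of 8 listed genes 5 were tested, 2 were called higher and none lower on either scale, and their median log2 change was 0.29 against 0.25 over all genes (0.08 against 0.01 after rescaling). The pair called higher form 1 heterodimer, the large neutral amino acid transporter LAT1, which also carries T3 and T4. Its light chain Slc7a5 had 13.9, 10.8, 11.9 and 12.3 FPKM in the knockout and 1.21, 1.01, 1.44 and 1.20 in WT (means 12.2 and 1.22, log2 change 2.57, limma adjusted p = 3.48e-07). Its heavy chain Slc3a2 had 35.9, 36.6, 41.6 and 39.7 FPKM in the knockout and 13.9, 14.8, 15.6 and 14.0 in WT (log2 change 1.34, adjusted p = 1.69e-06). Both stood apart from WT in all 4 samples. In the Slc16 family, 2 of 9 tested genes were higher and 1 lower (1 and 1 after rescaling), with a median of 0.12. Slc16a3, the lactate exporter MCT4, had 29.9, 13.4, 22.2 and 22.5 FPKM in the knockout against 1.06, 1.02, 0.575 and 1.31 in WT (log2 change 3.49, adjusted p = 2.64e-06). Slc16a6 rose by 0.39 on the log2 scale (adjusted p = 0.00765) and not after rescaling (0.17, adjusted p = 0.169). Slc16a9 had a log2 change of -0.32 (adjusted p = 0.0469), a call that was lost without any 1 of 6 samples (knockout 1, 2 or 3, or WT 1, 2 or 3; adjusted p up to 0.124).

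Dio2, the gene of the T4-activating deiodinase, had the largest change of the 7 tested genes (chromosome 12, 90724552 to 90738438, minus strand). Its level was 2.03, 4.94, 4.66 and 10.5 FPKM in knockout samples 1 to 4 and 0.225, 0.287, 0.175 and 0.384 FPKM in WT samples 1 to 4. Every knockout sample stood above every WT sample, and knockout 4 was 5.19 times knockout 1. Mean FPKM was 5.54 ± 3.58 against 0.268 ± 0.09 (SD, n = 4 each), 20.7-fold apart, and the log2 change was 2.21 ± 0.333 (SE; 95% interval 1.46 to 2.96; limma adjusted p = 0.00036). On the log2(FPKM + 1) scale the change of so low a gene is understated, and with a pseudocount of 0.1 FPKM it was 3.75. After rescaling it was 2.07 (adjusted p = 0.000561). Dio2 reached the minimum of 1 FPKM only through its knockout samples. The promoter window printed above for Dio2 holds both a TATA box and a cyclic AMP response element.

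Brown fat is a tissue known for Dio2, and adipocyte markers were uneven between samples. Adipoq, the adipocyte hormone adiponectin, had 1.82, 0, 0.141 and 21 FPKM in knockout samples 1 to 4, and 3.34 FPKM in WT 3 while the other WT samples were listed at 0. Ucp1, the uncoupling protein of brown fat, had 8.82, 0.0511, 0.202 and 102 FPKM in the knockout and was listed at 0 in every WT sample. Knockout 4 thus held the most of both markers and the most Dio2. In knockout 2 and knockout 3, where Adipoq stood at 0 and 0.141 FPKM, Dio2 was 4.94 and 4.66 FPKM, and WT 3 with 3.34 FPKM of Adipoq had the lowest Dio2 of all samples. Knockout 4 also held the most of the atrial marker Myl7, and without it the log2 change of Dio2 was 1.88 (limma adjusted p = 0.000188). Without the 3 samples with over 1 FPKM of Adipoq (knockout 1, knockout 4 and WT 3), the log2 change of Dio2 was 2.16 (limma adjusted p = 7.29e-05). The part of fat in the change of Dio2 was not tested. Of the 9 adipocyte markers 8 were tested and none was called on either scale. Their sums, 800 to 1740 FPKM in the knockout and 831 to 1790 in WT, are mostly Fabp4, which endothelial cells also express.

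Dio3, the gene of the hormone-inactivating deiodinase, is an imprinted gene of the Dlk1-Dio3 cluster (chromosome 12, 110279230 to 110281097, plus strand). It had 0.182, 2.4, 1.63 and 0.248 FPKM in knockout samples 1 to 4, and was listed at 0, 0, 0.0417 and 0.0457 FPKM in WT samples 1 to 4. All knockout samples lay above all WT samples, but knockout 1 and knockout 4 stayed under 0.25 FPKM while knockout 2 and knockout 3 were above 1.6. Its mean over all samples, 0.567 FPKM, kept it out of the test. In a fit with no minimum, where 41.6% of 18741 genes were called and 30.3% called higher, Dio3 differed by 0.9 ± 0.334 on the log2 scale (SE; adjusted p = 0.063 from limma). The call turned on the settings, since the change was 2.75 with a pseudocount of 0.1 FPKM (adjusted p = 0.011), 1.13 without knockout 1 (adjusted p = 0.0236) and 1.1 without knockout 4 (adjusted p = 0.0302). Without knockout 2 it was 0.62 (adjusted p = 0.108), and without knockout 3 it was 0.74 (adjusted p = 0.146). Without the 3 samples that hold over 1 FPKM of Adipoq it was 1.56 (adjusted p = 0.00144). That fit keeps only the high knockout samples, knockout 2 and knockout 3. Of 16 alternatives, 5 passed the threshold and 11 did not.

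Dio3os, a noncoding gene read from the strand opposite Dio3 and 1161 bases away, had 0.279, 2.18, 2.69 and 0.507 FPKM in the knockout and 0.0717, 0, 0.0639 and 0.0701 in WT. Its high samples, knockout 2 and knockout 3, were those of Dio3. A mean of 0.732 FPKM kept Dio3os out of the test. In the fit with no minimum its log2 change was 1.05 (limma adjusted p = 0.035). The authors' deposited table marks Dio3os as not significant (q = 0.279). Whether counting used strand is not stated. Other genes of the cluster were looked at after the values of Dio3 were seen. Meg3, a maternally expressed noncoding RNA, had 16.7, 17, 13.2 and 35.2 FPKM in the knockout and 11.2, 8.74, 10.7 and 8.56 in WT (log2 change 0.91, limma adjusted p = 0.0116), with its highest value in knockout 4. It was the only 1 of these other genes that passed the test. Rian, another noncoding RNA, had 3.92, 8.62, 7.46 and 21.5 FPKM in the knockout and 6.23, 3.73, 4.83 and 5.7 in WT, with overlapping groups (log2 difference 0.69, adjusted p = 0.15). Mirg, Dlk1 and Rtl1 stayed under the minimum, at no more than 2.18, 0.185 and 0.102 FPKM in any sample, and their groups overlapped. Dio1, the deiodinase of liver and kidney, was listed at 0 in 7 samples and at 0.0474 FPKM in WT 3. Of the 8 listed deiodinases and hormone-binding proteins, only Dio2 and Secisbp2 were tested. Secisbp2, which helps insert selenocysteine into deiodinases and other selenoproteins, differed by -0.2 (adjusted p = 0.0626), and by -0.44 after rescaling (adjusted p = 0.00267).

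**Figure D2:**
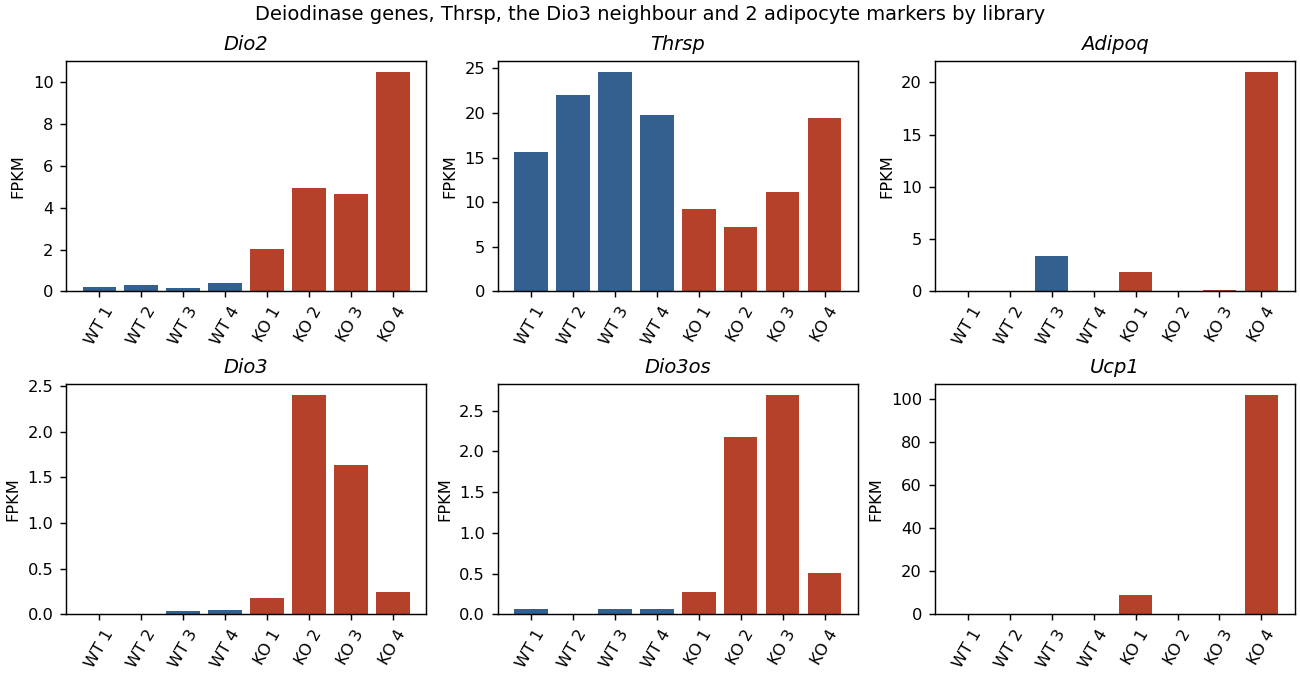
FPKM of Dio2, Thrsp, Dio3, its neighbour Dio3os and the adipocyte markers Adipoq and Ucp1 in each library (WT in blue, knockout, KO, in red; 1 bar per library). Dio3 and Dio3os share their 2 high libraries, knockout 2 and 3, whereas Adipoq and Ucp1 peak in knockout 4, where Dio2 is also highest at 10.5 FPKM.

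Thrb, the less abundant receptor gene here, was lower in every knockout sample (chromosome 14, 17660960 to 18038088, plus strand). It had 3.55, 2.48, 2.47 and 3.53 FPKM in knockout samples 1 to 4 and 6.61, 6.51, 5.54 and 5.67 FPKM in WT samples 1 to 4. The lowest WT sample was well above the highest knockout sample. Mean FPKM was 3.01 ± 0.616 against 6.08 ± 0.554 (SD, n = 4 each), and the knockout thus held 49.4% of the WT level. The log2 change was -0.83 ± 0.121 (SE; 95% interval -1.11 to -0.56; limma adjusted p = 0.000298), and -1.06 after rescaling (adjusted p = 5.82e-05). It passed the test in each alternative that could be run.

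Thra, which encodes the main thyroid hormone receptor of the heart, changed less and less firmly (chromosome 11, 98741873 to 98765111, plus strand). It had 31.5, 26.3, 23 and 21.8 FPKM in knockout samples 1 to 4 and 36.4, 29.5, 30.9 and 31.3 FPKM in WT samples 1 to 4. Knockout 1 lay within the WT range, and the other 3 knockout samples lay below it. Mean FPKM was 25.6 ± 4.34 against 32 ± 3.03 (SD, n = 4 each), or 80% of WT, with a log2 change of -0.32 ± 0.12 (SE; 95% interval -0.59 to -0.05; limma adjusted p = 0.0416). Rescaled, it was -0.59 (adjusted p = 0.00307). The call on the deposited scale was lost without any 1 of 6 samples: knockout 2, 3 or 4, or WT 1, 3 or 4 (adjusted p from 0.0601 to 0.113), and with no minimum on FPKM (adjusted p = 0.063).

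The annotation places the end of Thra over that of Nr1d1, a clock repressor read from the opposite strand, in 1075 bases of which 263 are exonic in both. The deposited spans of the genes lie 2823 bases apart, and the span of Thra matches 1 of its 9 annotated transcripts. Nr1d1 had 31.4, 31.4, 28.6 and 35.7 FPKM in the knockout and 36.2, 18.8, 21.9 and 22.1 in WT (log2 difference 0.39, limma adjusted p = 0.0835, and 0.12 rescaled). WT 1 was highest for both genes, whereas their group differences had opposite signs on both scales.

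The balance of the receptors shifted within samples. The ratio of Thra to Thrb FPKM was 8.88, 10.6, 9.32 and 6.17 in knockout samples 1 to 4 and 5.51, 4.53, 5.58 and 5.52 in WT samples 1 to 4. Knockout 4 was nearest to WT, and the groups did not overlap. The log2 ratio was 2.73 ± 0.28 in the knockout and 2.22 ± 0.13 in WT (SD, n = 4 each), a difference of 0.51 (exact two-sided permutation p = 0.0286, the smallest possible). Such a ratio is little affected by how libraries are scaled, and it was 0.7 with no pseudocount. Thrb made up 10.5% of the summed FPKM of both receptors in the knockout and 16% in WT, and the sum itself was 28.6 ± 4.55 against 38.1 ± 3.3 FPKM. FPKM counts all isoforms of a gene, so the hormone-binding and the non-binding product of Thra are not told apart here.

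**Figure D3:**
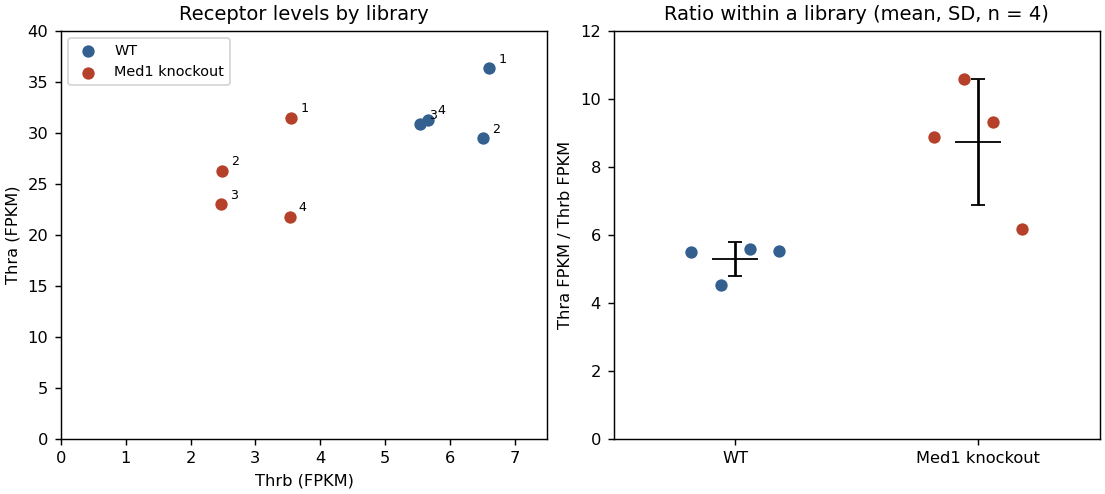
Left, Thra against Thrb FPKM in each library (blue WT, red knockout, numbers give the replicate). Right, the ratio of Thra to Thrb within each library, with mean and SD (n = 4). Ratios of 6.17 to 10.6 in the knockout lie above those of 4.53 to 5.58 in WT.

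Genes of retinoid X receptors, the partners of Thra and Thrb products, were lower too, 2 of 3 by the test. Of the 5 listed receptors and heterodimer partners, 4 were lower in the knockout (5 after rescaling) and none higher, Thra and Thrb included. Over all tested genes, 16.4% were lower (26.7% after rescaling). The median log2 change of the 5 was -0.39 against 0.25 over all genes (-0.64 against 0.01 rescaled). Rxrg, the retinoid X receptor gene most tied to muscle, had 6.82, 8.74, 5.29 and 4.99 FPKM in the knockout and 39.3, 41.7, 36.4 and 39.4 in WT, 6.07-fold lower between means (log2 change -2.46, limma adjusted p = 2.09e-06). Rxra had a log2 change of -0.39 (adjusted p = 0.00278), and -0.64 rescaled. Rxrb differed by -0.16 (adjusted p = 0.096), and by -0.43 rescaled (adjusted p = 0.00214).

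Among 10 coactivators, Med1 itself was lower and Kat2b and Crebbp, both histone acetyltransferases, were higher. Kat2b rose by 0.7 on the log2 scale (limma adjusted p = 0.000878), and by 0.42 rescaled (adjusted p = 0.0158). Crebbp rose by 0.45 (adjusted p = 0.00363), but differed by 0.22 after rescaling (adjusted p = 0.0789). The coactivators' median went from 0.04 as deposited to -0.2 rescaled, when 4 were lower and 1 higher. Of 7 corepressor genes, 3 were higher as deposited and none lower, among them Ncor1 (0.33, limma adjusted p = 0.0089) and Tbl1x (0.32, adjusted p = 0.00407). After rescaling both of these differed by 0.06, none of the 7 was higher and 1 was lower, and the median went from 0.13 to -0.14. The direction for corepressors therefore rests on the scaling.

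Thrsp encodes the nuclear protein Spot14, which is induced by thyroid hormone in liver and fat and promotes lipid synthesis (chromosome 7, 97412957 to 97417510, minus strand). It had 9.21, 7.22, 11.1 and 19.4 FPKM in knockout samples 1 to 4 and 15.6, 22, 24.6 and 19.8 FPKM in WT samples 1 to 4. Knockout 4 lay within the WT range, and the other knockout samples lay below it. Mean FPKM was 11.7 ± 5.37 against 20.5 ± 3.82 (SD, n = 4 each), 57.2% of WT, with a log2 change of -0.82 ± 0.257 (SE; 95% interval -1.4 to -0.24; limma adjusted p = 0.0194). Rescaled, it was -1.09 (adjusted p = 0.0045).

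Fat also expresses Thrsp, and its highest sample in each group, knockout 4 and WT 3, was the one with the most Adipoq (21 and 3.34 FPKM). Without WT 3 the change of Thrsp was -0.73 and missed the threshold (limma adjusted p = 0.0538). Without knockout 4 it was -1.08 (adjusted p = 0.00078), and without knockout 1, knockout 4 and WT 3 together it was -1 (adjusted p = 0.0056). Its level in the samples with no Adipoq, WT 1, 2 and 4 and knockout 2, was 15.6, 22, 19.8 and 7.22 FPKM. The part of fat in the change of Thrsp was not tested. Fasn, the fatty acid synthase, rose by 0.74 on the log2 scale in the same comparison (adjusted p = 0.0168) and differed by 0.51 after rescaling (adjusted p = 0.0732). Of 10 tested response genes known from other tissues, Fasn was called higher, and Thrsp and Klf9 lower. Their median of 0.19 lay beside 0.25 for all genes.

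Klf9, a zinc-finger repressor induced directly by T3 and by glucocorticoids, was lower in every knockout sample (chromosome 19, 23141226 to 23166911, plus strand). It had 31.8, 28.2, 29.1 and 36.5 FPKM in knockout samples 1 to 4 and 50.3, 37.3, 47.2 and 40.3 FPKM in WT samples 1 to 4. The groups were adjacent, with knockout 4 just under WT 2. Mean FPKM was 31.4 ± 3.72 against 43.8 ± 6 (SD, n = 4 each), 71.7% of WT, with a log2 change of -0.46 ± 0.116 (SE; 95% interval -0.73 to -0.2; limma adjusted p = 0.00671). Rescaled, it was -0.74 (adjusted p = 0.00035), and all 18 alternatives kept it past the threshold. Of 12 tested genes of its family, 1 was higher and 2 lower (1 and 4 rescaled), with a median of 0.13. Klf12 changed by -1.02 (adjusted p = 6.04e-05) and Klf16 by 0.6 (adjusted p = 0.00108). The microRNA gene Mir1192, which lies in an intron of Klf9, had 23.2 FPKM in knockout 3 and was listed at 0 elsewhere.

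Hr encodes Hairless, a corepressor with a demethylase domain that thyroid hormone induces in brain (chromosome 14, 70554056 to 70573542, plus strand). It had 4.92, 11.4, 8.48 and 11.3 FPKM in knockout samples 1 to 4 and 11.3, 9.35, 8.56 and 8.76 FPKM in WT samples 1 to 4. Knockout 1 stood far below the rest, and knockout 3 lay just under the lowest WT sample. Knockout 2 and knockout 4 matched or passed the highest WT sample. Mean FPKM was 9.02 ± 3.04 against 9.49 ± 1.25 (SD, n = 4 each), with a log2 difference of -0.12 ± 0.22 (SE; 95% interval -0.61 to 0.38; limma adjusted p = 0.659). It was -0.37 rescaled (adjusted p = 0.185) and 0.11 without knockout 1. In the authors' deposited table, Hr is marked as significant (log2 fold change -0.35, q = 0.0308). Its 3 relatives in the Kdm3 list were all tested. Kdm3a rose by 0.66 (adjusted p = 0.00156), and by 0.4 rescaled (adjusted p = 0.0185), and Jmjd1c rose by 0.38 (adjusted p = 0.000521). Kdm3b changed by -0.24 (adjusted p = 0.0289), and by -0.48 rescaled (adjusted p = 0.000992). As deposited, that call was lost without any 1 of 6 samples (knockout 2, 3 or 4, or WT 1, 3 or 4; adjusted p up to 0.0754). Jmjd1c was not called after rescaling (0.12, adjusted p = 0.15).

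**Figure D4:**
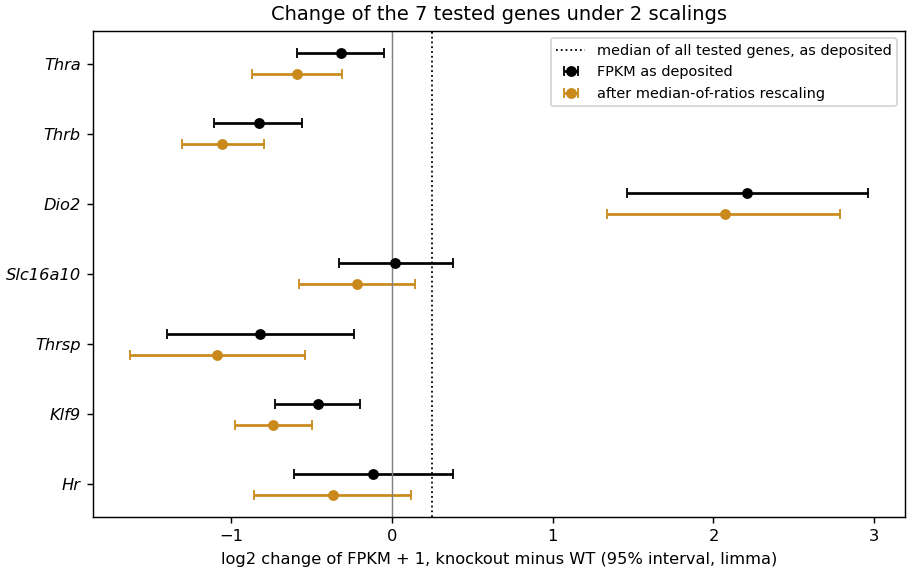
Log2 change (knockout minus WT, of FPKM + 1) of the 7 tested genes with 95% intervals from limma, for FPKM as deposited (black) and after rescaling (orange). Dio2 lies above 0, and Thra, Thrb, Thrsp and Klf9 below it on both scales. The dotted line is the median of all tested genes as deposited, 0.25.

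The authors' deposited table gives log2 fold changes of -0.6 for Thra, -1.3 for Thrb, 4.07 for Dio2, -1.1 for Thrsp and -0.76 for Klf9, all at its smallest q of 0.000211. It marks Slc16a10 (-0.23, q = 0.264) and Dio3 (5.4, q = 0.293) as not significant. In the authors' deposited table, group values are a median of 1.29 times the mean of the deposited libraries in WT and 1.06 times in the knockout. That table marks 45.8% of 12539 tested genes as significant.

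Cardiac genes known to respond to thyroid hormone included many that were lower in the knockout, both among those the hormone raises and among those it lowers. Of 12 cardiac genes that textbooks list as raised by the hormone, 10 were lower in the knockout (11 rescaled) and none higher. Over all tested genes, 16.4% were lower and 44.9% higher (26.7% and 26.9% rescaled). The median log2 change of the 12 was -1.68 against 0.25 over all genes. As deposited, the call of Kcna5 (-0.35, limma adjusted p = 0.0485) was lost without any 1 of 5 samples. These were knockout 1 or 4, or WT 1, 3 or 4 (adjusted p up to 0.118). The potassium channel gene Kcnd2 had the largest change (-3.19, limma adjusted p = 6.54e-06). The calcium pump gene Atp2a2 (-3.16, adjusted p = 2.16e-07), Ucp3 (-3.05, adjusted p = 0.00163) and the myosin gene Myh6 (-2.44, adjusted p = 1.13e-05) followed. Of 6 genes that the hormone lowers, 3 were lower as well and 1 was higher, with a median of -0.39. Pln, the inhibitor of the calcium pump, changed by -4.47 (adjusted p = 2.24e-07), Myh7 by -3.08 (adjusted p = 6.11e-05) and Adcy6 by -0.78 (adjusted p = 0.000136). Kcna4 rose by 0.6 (adjusted p = 0.0117), but not after rescaling (0.45, adjusted p = 0.052). The 6 cardiomyocyte markers, 1 of them Myh6 itself, were lower in the same samples. The part of the cell markers in these changes was not tested.

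**Figure D5:**
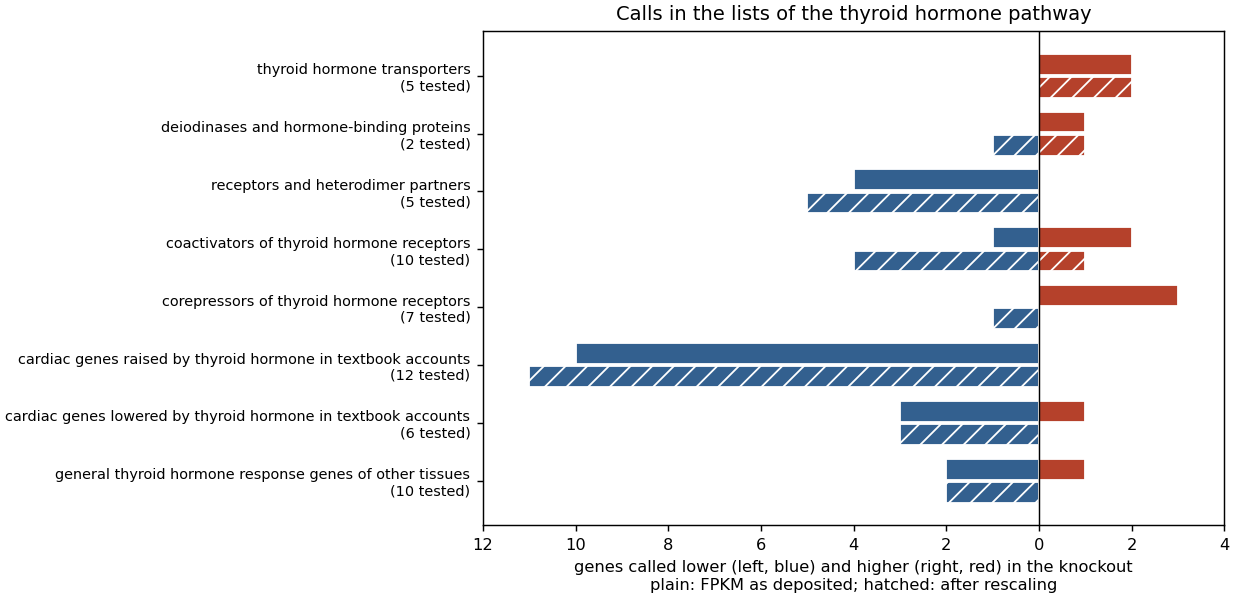
Number of genes called lower (left, blue) and higher (right, red) in the knockout in each list of the thyroid hormone pathway, as deposited (plain bars) and after rescaling (hatched bars). Cardiac genes raised by the hormone hold 10 lower calls of 12, and the corepressors go from 3 higher calls to none with rescaling. Over all tested genes as deposited, 16.4% were called lower and 44.9% higher.

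In WT ventricles the levels per length ran, from high to low FPKM, Klf9, Thra, Thrsp, Hr, Slc16a10, Thrb, Dio2 and Dio3. Among neighbours in that order, only Slc16a10 and Thrb overlapped between samples. In the knockout, Dio2 (mean 5.54 FPKM) moved above Thrb (3.01 FPKM), and only Thra from Thrsp and Thrb from Dio3 were apart in every sample. The genes most like each member over the 8 samples were taken by Pearson's r of log2(FPKM + 1), and r is only a description. For Thra, Thrb, Dio2 and Klf9 these genes were all called in the member's own direction, so they repeat the split into groups. For Thrsp only Tbx5 was called as deposited, and for Slc16a10 and Hr none was. The genes were Lims1, Cdh2 and Enpp5 for Thra (0.96 each), Neat1, Cacfd1 and Sco2 for Thrb (0.99 each), and Xrcc2, Ret and Echdc1 for Klf9 (0.97 to 0.98). For Dio2 they were AA414768, Glis2 and Cdc42ep5 (0.995 to 0.997), and for Thrsp Chd9, Tbx5 and Zfp82 (0.94 to 0.95). Slc16a10 was most like Cpped1, Ctsf and Ubl7 (0.93 to 0.98), and Hr most like Ppil3, Hdac2 and Lysmd2 (0.96 each).

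Markers of other tissues were read in the same samples. Thyroid gland markers summed to at most 0.546 FPKM, and none of the 6 reached the minimum. Liver markers summed to at most 0.597 FPKM. Skeletal muscle markers summed to 28.7 to 55.8 FPKM in the knockout and 4.28 to 6.68 in WT, most of it Mybpc2. The other 5 stayed under the minimum, and means of the skeletal myosins Myh1, Myh2 and Myh4 were lower in the knockout (0.0659, 0.0372 and 0.00543 FPKM) than in WT (0.895, 0.0906 and 0.0687). Endothelial markers summed to 289 to 369 and 293 to 366 FPKM, with 1 higher and 2 lower of 7 (none higher and 4 lower after rescaling). Pericyte and smooth muscle markers summed to 347 to 459 and 388 to 557 FPKM, with 1 higher and 3 lower of 6 (none higher and 3 lower after rescaling). Macrophage markers summed to 131 to 203 and 180 to 253 FPKM with none of 6 called (3 lower after rescaling). Blood markers summed to 775 to 6800 and 870 to 4510 FPKM with none of 3 called.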

How the data were processed

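Per the submitters' processing notes, TopHat (application version 1.0.0) aligned the reads to mm10, and Cufflinks and Cuffdiff were used after it. The deposited values are FPKM for each gene in each library, per the file headers. The libraries were strand-specific per the labels' protocols, but the annotation and the strand setting of counting are not stated in them. Of 23847 rows, 312 hold words in place of numbers, and the authors' placeholder of 0.001 FPKM was set to 0. FPKM is relative to a library's total, so a few very abundant genes can lower all others, and fragment counts were not recovered. The authors' deposited table adds group FPKM, a log2 fold change, a p-value and a q-value per gene, the smallest p-value being 5e-05.

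Groups and replicate numbers come from the labels. The main test was limma 3.58.1 in R 4.3.3, with its variance trend on intensity, applied to log2(FPKM + 1). Genes whose mean over the 8 libraries reached 1 FPKM entered, with Benjamini-Hochberg adjustment over all of them and a threshold of 0.05. All tests are two-sided. A log2 change is the knockout value minus the WT value, and SE and intervals are limma's. Dio3 and Dio3os come from a fit with no minimum. The ratio of Thra to Thrb and the FPKM of Med1 were compared by exact permutation. Annotation overlaps are from GENCODE M21. On simulated data for this comparison (11849 genes), the procedure recovered 40% of changes of 0.5, 79.2% of changes of 1 and 96.8% of changes of 2 on the log2 scale, and 4.67% of its calls were unchanged genes. Only 65, 72 and 62 genes were changed at these sizes, in both directions, and no shift between libraries was simulated. In the data 61.3% of tested genes were called, so these rates need not hold for those calls. FPKM gives no counting interval here.

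The members and lists were chosen with earlier results of these data known. Named are the 8 members, Med1, up to 4 called genes of largest change per list, genes that overlap a member, and the 3 genes most correlated with each tested member (predicted genes left out). Some genes that this rule names are not reported here. Alternatives were another pseudocount, a minimum of 5 FPKM or none, scaling by quantiles or by the median of ratios, other limma variances and weights, a replicate block, and leaving out each library. A fit without the 3 libraries with Adipoq above 1 FPKM was added after seeing the data.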

Additional observations from a re-analysis of the deposited data

Results flagged for a closer look

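Among 25 groups of 4 values examined, 3 held a sample far from the other 3 by Dixon's test, and chance alone marks about 1 in 20 groups. The log2 ratio of Thra to Thrb was 2.02 in WT 2 and 2.28 to 2.3 in the other WT samples. Dio3os was listed at 0 FPKM in WT 2, with 0.0639 to 0.0717 FPKM in the other WT samples. Mir1192, in an intron of Klf9, had 23.2 FPKM in knockout 3 and was listed at 0 in the other knockout samples.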

How the results depend on the processing

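Thrb, Dio2, Klf9 and Med1 kept their direction and their side of the threshold in every alternative run. A minimum of 5 FPKM left out Thrb and Dio2 and gave no value for them. Genes called higher numbered 3219 after median-of-ratios rescaling and 3437 after quantile normalization, against 5372 as deposited, and genes called lower 3203 and 3066 against 1964. Leaving out each library gave 4889 to 5264 higher and 1787 to 1957 lower. Thra was -0.32 with no minimum (adjusted p = 0.063), and -0.42 to -0.25 leaving out each library (adjusted p from 0.00569 to 0.113). Thrsp was -1.08 to -0.64, with adjusted p from 0.00078 to 0.0538. Dio3 was 2.75 with a pseudocount of 0.1 FPKM and 1.14 with array weights (adjusted p = 0.0078). It was 1.56 without knockout 1, knockout 4 and WT 3, a fit that keeps only its high knockout samples. Leaving out each library gave 0.62 to 1.13 for Dio3 (adjusted p from 0.0236 to 0.146). Slc16a10 turned to -0.22 under both rescalings, and lay between -0.09 and 0.17 leaving out each library (-0.09 without knockout 1, -0.01 without knockout 3 and -0.02 without WT 1). Hr turned to 0.11 without knockout 1 (range -0.24 to 0.11) and to 0.01 without those 3 libraries. The Thra to Thrb difference was 0.43 to 0.65 leaving out each library, with exact p from 0.0286 to 0.0571, and 0.68 without those 3 libraries, where the smallest p that 2 against 3 samples can give is 0.1. The causes of these shifts were not tested, beyond fewer samples in the fits that leave some out.

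Replicate numbers do not pair the samples: deviations of same-numbered samples correlated at 0.14, 0.03, -0.04 and -0.01, and only replicate 1 matched its own number best. With a replicate block 5089 genes were higher and 1867 lower, and no call among the 8 members changed. Paired by number, the Thra to Thrb difference was 0.51 (exact p = 0.125, the smallest that 4 pairs can give). Of 396 counts of calls in the gene lists under the alternatives, 339 stayed within 1.5 times and 57 did not, 23 of these leaving out libraries and 20 under a rescaling. FPKM keeps no counts, so the precision of low genes such as Dio3 is not known beyond the spread of samples.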
